A study of Homo sapiens with 2 samples.

Results

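The genes followed here are 10 markers of mammary stem, progenitor and lineage states, read in 1 Nanopore direct RNA library and 1 Illumina library made from matched RNA. The markers were CD44, CD24, EPCAM, ALDH1A1, ALDH1A3, PROCR, THY1, MME, BMI1 and GATA3, chosen by name, and each was matched by its Ensembl identifier in GENCODE release 44. All 10 were among the 58735 genes of both count tables. The RNA came from MCF10a-Snail-ER cells, a non-tumorigenic human mammary epithelial line that stably expresses a fusion of Snail, a factor that represses epithelial genes, with the estrogen receptor. Both libraries share 100 nM tamoxifen for 1 day, which activates the fusion and starts an epithelial-to-mesenchymal transition. Nothing in the labels says whether the line is a single clone, and the construct's promoter is not given in the sources used here. No untreated library was analysed here, so the values describe the treated state, and the only comparison is between platforms. Direct RNA sequencing reads native polyadenylated strands through a pore, whereas the TruSeq stranded mRNA library was made by fragmenting RNA and amplifying its cDNA.

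The mammary gland has an outer basal and an inner luminal epithelial layer, and cells of both can be sorted by surface proteins. CD44, a hyaluronan receptor, CD24, a small lipid-anchored mucin-like protein, and EPCAM, an adhesion protein of epithelial cells, are the classic sorting markers, and a CD44-high, CD24-low surface profile is widely used to describe mammary stem-like and mesenchymal states. PROCR, THY1 and MME mark basal or stromal subsets, ALDH1A enzymes underlie the aldehyde dehydrogenase assay for progenitors, BMI1 is a Polycomb protein linked to self-renewal, and GATA3 is the master transcription factor of luminal cells.

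The Nanopore table held 403235 counts and that of Illumina held 191741714, a 476-fold difference in depth. A single Nanopore count was thus worth 2.48 counts per 1000000 (CPM), and a single Illumina count 0.00522 CPM. With 1 library per platform no value has a replicate check. Intervals are 95% exact Poisson intervals of the count, or exact binomial intervals of a ratio of counts, and they cover counting error only. Basal mammary epithelial markers were present as the label implies: all 7 genes of that list, among them KRT5, KRT14, KRT17, TP63, LAMB3 and ITGB4, had counts in both libraries, with summed levels of 3420 (Nanopore) and 3735 CPM (Illumina). The keratins KRT5 (1686 against 1447 CPM), KRT14 (799 against 611) and KRT17 (533 against 289.6) were called higher by Nanopore in the test described later, though KRT5 turned lower when Illumina counts were divided by mean transcript length (log2 ratio −0.11). LAMB3, ITGB4 and TP63 were called higher by Illumina, but ITGB4 (0.67) and TP63 (0.041) turned with division by union exonic length, and ITGB4 also with mean transcript length (0.45). Of 13 luminal lineage genes, KIT, ELF5, PGR and TFF3 were listed at 0 in both libraries, whereas KRT8 and KRT18 were present at 389 and 280.2 CPM by Nanopore and 209 and 321.8 CPM by Illumina. The luminal list summed to 1664 and 709.5 CPM, in which the ESR1 counts can include the fusion construct. Genes of stromal, vascular and immune cells were checked as well. Summed levels were 27.3 and 40.5 CPM for 7 fibroblast genes, 2.48 and 6.85 CPM for 5 endothelial genes and 44.6 and 56.04 CPM for 5 leukocyte genes, by Nanopore and Illumina. The leukocyte genes CD3E and MS4A1 were at 0 in both libraries, PTPRC had 2 Illumina counts, and CD68 held most of that list's counts. DCN held 10 of the 11 Nanopore counts of the fibroblast list. The part of these genes in the platform ratios was not tested.

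Illumina detected 9 of the 10 marker genes, and Nanopore 8 of those 9. Over all genes with Illumina counts, Nanopore detected 54.9%. The 10 genes together had 165 Nanopore and 117919 Illumina counts. Per length, the Illumina levels fell into 3 tiers. CD44 and PROCR were high, at 114 transcripts per 1000000 (TPM, here scaled by union exonic length; interval 113.3 to 114.9) and 105 TPM (103.04 to 106.7). CD24 (29.4 TPM), BMI1 (25.9), ALDH1A3 (10.7) and GATA3 (10.3) were intermediate, and EPCAM (4.48) and MME (3.97) were low. THY1 stood at 0.0430 TPM and ALDH1A1 at 0. Among protein-coding genes with Illumina counts, CD44 and PROCR were at the 93.8 and 93.2 percentiles of TPM, EPCAM at 40.3 and MME at 38.5. Of neighbours in this order, ALDH1A3 and GATA3 had overlapping counting intervals. The tiers rest on the length used. With mean transcript length in place of union exonic length, CD44 stood at 467.7 TPM against 97.2 for PROCR. BMI1 (56.8 TPM) then moved above CD24 (36.9) and MME (5.47) above EPCAM (4.35).

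By Nanopore, where a read comes from a single molecule and counts were not divided by length, the order was CD44 (79 counts), CD24 (37), BMI1 (25), PROCR (13), GATA3 (4), EPCAM (3), and ALDH1A3 and MME (2 each). The interval of CD44 lay above that of CD24. Every later pair of neighbours had overlapping intervals, so their order is not resolved at this depth.

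**Figure D1:**
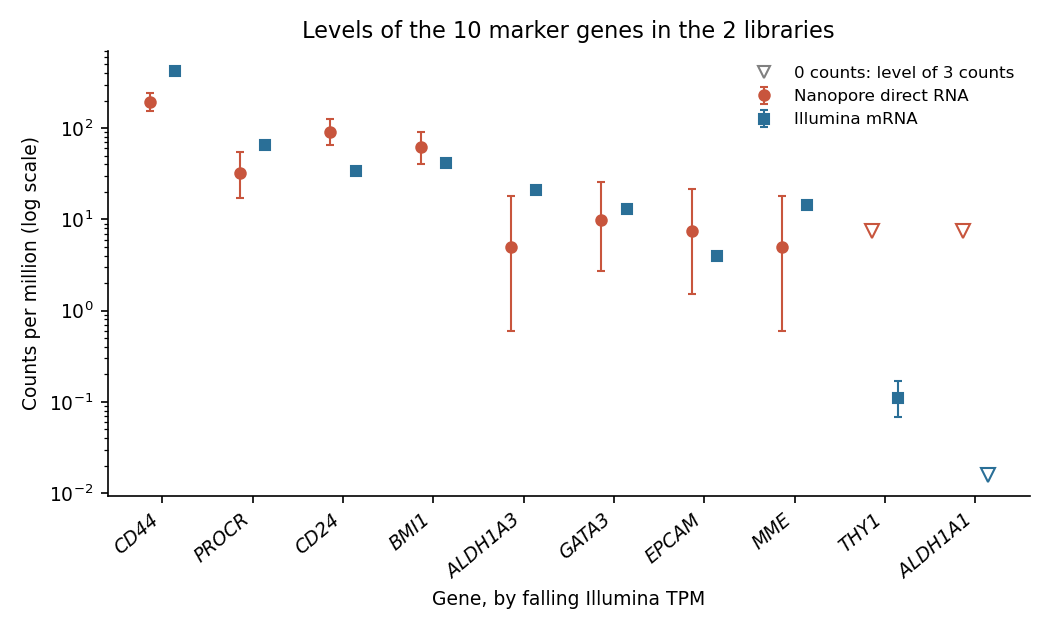
CPM (log axis) of the 10 marker genes in the Nanopore (circles) and Illumina (squares) libraries, 1 library each, with 95% exact Poisson intervals; open triangles mark genes with 0 counts, drawn at the level of 3 counts. CD24 is higher by Nanopore and CD44, PROCR and ALDH1A3 are higher by Illumina on this scale (CD44 turns with division by union exonic length), while the Nanopore intervals of the 4 genes with 2 to 4 counts are wide.

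To compare the platforms, a two-sided exact binomial test given the library totals was run on every gene whose mean level reached 5 CPM, 12414 in all, with Benjamini-Hochberg adjustment over all of them. What it compares is a pair of libraries, and a platform effect cannot be told apart from a library effect. Log2 ratios put Nanopore over Illumina, after adding 1 CPM to each level, so a positive value is higher by Nanopore. Of the 10 markers, 8 passed the filter, and THY1 and ALDH1A1 did not. EPCAM passed through its Nanopore value, since its Illumina level was under 5 CPM, and ALDH1A3 and MME passed through their Illumina values, since their Nanopore levels were under 5 CPM. The direction of their ratios is thus partly set by the filter. CD24 alone was called higher by Nanopore (1 of 8, against 20.2% of all tested genes), and CD44, PROCR and ALDH1A3 were called higher by Illumina (3 of 8, against 27.2%), CD44 in the other direction on a scale that divides Illumina counts by union exonic length. None of the 8 differed 4-fold on this scale, against 12.9% of tested genes 4-fold higher by Nanopore and 8.14% 4-fold higher by Illumina. With so few genes these counts do not set the markers apart from the background. Their median log2 ratio was −0.68 (range −1.89 to 1.42), and that of all tested genes was −0.42.

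CD44 (ENSG00000026508, chromosome 11, 35138882 to 35232402, hg38) was the most abundant marker in both libraries. It had 79 Nanopore counts, 196 CPM (155.1 to 244.2), and 80739 Illumina counts, 421 CPM (418.2 to 423.997). The Illumina level was 2.15 times the Nanopore level (1.72 to 2.72), with an adjusted p of 1.14e-13 by the exact binomial test. This direction rests on the scale. Dividing Illumina counts by union exonic length, 9992 bases for CD44, turned the log2 ratio from −1.10 to 0.77 (exact adjusted p = 5.56e-05), while dividing by mean transcript length, 1081 bases, gave −1.25. Relative to the median of all tested genes, which those divisions moved from −0.42 to 0.40 and to 0.065, the ratio of CD44 was −0.68, 0.37 and −1.32. The annotation holds 38 CD44 transcripts of 352 to 5431 bases, among them the standard and variant forms, and the gene-level counts do not separate them.

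Among genes of CD44 biology, ESRP1 and ESRP2, epithelial splicing factors known to favour CD44 variant exons, had few Nanopore counts. ESRP1 had 5 Nanopore counts (12.4 CPM against 19.1 by Illumina) and ESRP2 had 3 (7.44 against 6.25 CPM). RBFOX2, a splicing factor known for mesenchymal exon choices, had 154 Nanopore counts, 382 CPM against 135 by Illumina, and a log2 ratio of 1.497 (exact adjusted p = 8.37e-27). MMP14, a membrane protease that cleaves CD44, was lower by Nanopore (59.5 against 154.8 CPM, log2 ratio −1.36, exact adjusted p = 3.03e-07). Of the hyaluronan synthases, which make the CD44 ligand, HAS3 had 16 Nanopore counts (39.7 against 24.5 CPM), HAS2 2 and HAS1 0. HMMR, another hyaluronan receptor, was at 71.9 and 92.6 CPM. Of the 6 tested genes of this list of 8, 1 was called higher by Nanopore and 1 higher by Illumina. Over all tested genes these shares were 20.2% and 27.2%.

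A gene on the opposite strand, CD44-AS1 (ENSG00000255443, an antisense lncRNA, 35210343 to 35214985), had 31 Nanopore counts and 58 Illumina counts. That is 39.2 counts per 100 CD44 counts by Nanopore and 0.0718 per 100 by Illumina, and its log2 ratio of 5.90 was above those of 98.7% of tested genes (exact adjusted p = 5.40e-58). Its 587 exonic bases put it among the tested genes of 53 to 2236 bases, with a median log2 ratio of 1.21 (quartiles −0.03 to 3.41). CD44-AS1 passed the filter through its Nanopore value, since its Illumina level was 0.302 CPM, so its direction is partly set by the filter. One of its 2 exons contains a whole coding exon of CD44. The region is printed to show how little sequence the genes share, on the CD44 strand, with the 63 bases of that CD44 exon (35214852 to 35214914) in capitals.
CD44-AS1 exon, chr11:35214831-35214985, hg38, plus strand: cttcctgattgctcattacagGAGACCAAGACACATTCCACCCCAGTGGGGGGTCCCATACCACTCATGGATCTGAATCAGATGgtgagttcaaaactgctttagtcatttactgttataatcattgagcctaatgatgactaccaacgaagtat
In all, 84 bases of annotated exon are common to the genes, 14.3% of CD44-AS1 and 0.841% of CD44. The strand setting of the counting and the treatment of reads that overlap several genes are not given in the sources used here, so reads of either gene within these bases cannot be told apart by strand. Whether CD44 reads were counted for CD44-AS1 was not tested.

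CD24 (ENSG00000272398, chromosome 6, 106969831 to 106975627, minus strand) was the only marker called higher by Nanopore. It had 37 Nanopore counts, 91.8 CPM (64.6 to 126.5), where the Illumina level of 33.6 CPM (32.8 to 34.4; 6437 counts) would give 13.5 counts at the Nanopore depth. The ratio was 2.73-fold (1.92 to 3.77), with an exact adjusted p of 1.27e-06. The log2 ratio lay between 1.29 and 1.63 under all 11 alternative settings, and the call held in each. The filters and pseudocounts among them could not change its direction, nor the pseudocounts the call. CD24 overlaps no other annotated gene, alone among the 10.

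CD24 does have close copies elsewhere in the genome. Its longest transcript, 2513 bases, aligned over 99.8% of its length to chromosome Y with 1.82% divergence, and over 85.2% to chromosome 15 with 5.46% divergence. In the same search the longest transcripts of the other 9 markers aligned to their own loci only, alternate contigs included. The search can miss partial or diverged copies, since BMI1P1, an annotated processed pseudogene on chromosome X, was not among its hits. BMI1P1 was listed at 0 counts in both libraries. The CD24 coding sequence without its stop codon is printed to show how near its copies are, from 106974646 down to 106971664 over 2 exons. The 2 of 240 bases that differ in CD24P4, the processed pseudogene on chromosome Y, are in capitals.
CD24 coding sequence, hg38 chromosome 6, minus strand: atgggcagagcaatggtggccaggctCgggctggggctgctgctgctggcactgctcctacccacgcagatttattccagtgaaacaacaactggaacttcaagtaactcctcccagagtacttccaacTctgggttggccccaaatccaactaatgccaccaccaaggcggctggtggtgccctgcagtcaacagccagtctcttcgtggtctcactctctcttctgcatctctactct
CD24P2 on chromosome 15 matched 202 of 215 aligned bases, CD24P1 on chromosome 1 191 of 223 and CD24P5 on chromosome 3 173 of 209. All 4 pseudogenes were listed at 0 counts in both tables. How reads that map to several places were counted is not given in the sources used here, and the part of these copies in the CD24 ratio was not tested.

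The CD44 to CD24 balance was above 1 on each scale tried, but its size was not shared. Nanopore counted 2.14 CD44 reads per CD24 read (1.43 to 3.25). The Illumina ratio was 3.89 per union exonic length (3.79 to 3.99) and 12.7 per mean transcript length, both outside the Nanopore interval.

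EPCAM (ENSG00000119888, chromosome 2, 47345158 to 47387601) was scarce. It had 3 Nanopore counts, 7.44 CPM (1.53 to 21.7), and 770 Illumina counts, 4.02 CPM (3.74 to 4.31), which would give 1.62 Nanopore counts. The ratio of 1.85-fold had an interval of 0.381 to 5.43 and an exact adjusted p of 0.570, an interval that holds both a lower and a higher Nanopore level. CD44 counts outnumbered EPCAM counts 26.3 to 1 by Nanopore (8.69 to 130.4), and the Illumina ratio was 25.5 per union exonic length and 107.6 per mean transcript length. CD24 counts outnumbered EPCAM counts 12.3 to 1 by Nanopore (3.91 to 62.5), and by Illumina 6.56 to 1 per union exonic length and 8.49 to 1 per mean transcript length.

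PROCR (ENSG00000101000, chromosome 20, 35172072 to 35216240), the endothelial protein C receptor, had 13 Nanopore counts, 32.2 CPM (17.2 to 55.1), and 12598 Illumina counts, 65.7 CPM (64.6 to 66.9). The Illumina level was 2.04 times the Nanopore level (1.19 to 3.83), with an exact adjusted p of 0.0151. The call was lost when only protein-coding genes were kept (exact adjusted p = 0.0910), and the log2 ratio moved from −1.005 to −1.67 after division by union exonic length. PROCR is short, 1697 exonic bases. In the group of tested genes of 53 to 2236 bases the median log2 ratio was 1.21 (quartiles −0.03 to 3.41). PROCR stood below the lower quartile of that wide group, in which its own length is toward the upper end. The next group, of 2238 to 3966 bases, had a lower quartile of −0.89.

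Both genes with Nanopore counts that overlap PROCR lie on the other strand. ENSG00000278367, a lncRNA of 1 exon (35174355 to 35174919), had 9 Nanopore and 1018 Illumina counts, or 69.2 and 8.08 per 100 PROCR counts, with a log2 ratio of 1.89 (exact adjusted p = 0.00253). MMP24OS (35201745 to 35278131) had 15 and 3352 counts, or 115 and 26.6 per 100, with a log2 ratio of 1.05 (exact adjusted p = 0.0283), and shares no exonic base with PROCR. Thus, on the CPM scale, PROCR was lower by Nanopore while both of its opposite-strand neighbours were higher. The PROCR coding exon that meets ENSG00000278367 is printed because most of it is common to both genes, with its 218 shared bases (35174702 to 35174919) in capitals.
PROCR coding exon, chr20:35174702-35174953, hg38, plus strand: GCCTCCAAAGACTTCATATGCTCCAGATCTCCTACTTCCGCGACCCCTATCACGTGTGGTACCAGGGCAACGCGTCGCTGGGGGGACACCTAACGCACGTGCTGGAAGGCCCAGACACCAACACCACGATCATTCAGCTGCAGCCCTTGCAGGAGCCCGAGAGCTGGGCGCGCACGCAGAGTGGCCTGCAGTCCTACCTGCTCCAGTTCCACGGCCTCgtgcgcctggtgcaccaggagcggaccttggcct
Those bases are 12.8% of PROCR and 38.6% of the lncRNA. Whether they bear on the ratio of PROCR was not tested.

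THY1 (ENSG00000154096, chromosome 11, 119415476 to 119424985), known as CD90 and found on basal and stromal cells, had 21 Illumina counts, 0.110 CPM (0.0678 to 0.167), and no Nanopore count. The Illumina level would give 0.0442 Nanopore counts, and a Nanopore count of 0 allows up to 7.44 CPM, taking 3 counts as the limit. MME (ENSG00000196549, chromosome 3, 155024124 to 155183704), a surface peptidase known as CD10 that marks myoepithelial cells, had 2 Nanopore counts, 4.96 CPM (0.601 to 17.9). Illumina gave 2775 counts, 14.5 CPM (13.9 to 15.02), which would give 5.84 Nanopore counts. The Illumina level was 2.92 times the Nanopore level (0.807 to 24.1), and the exact adjusted p was 0.226. MME-AS1, on the other strand, also had 2 Nanopore counts, but 5.59 Illumina counts per 100 of MME.

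Of 15 other surface and regulatory markers of mammary stem or progenitor cells, Nanopore detected 6 and Illumina 12, while LGR5, TSPAN8 and SOX10 were at 0 in both. Of the 6 tested, 3 were called higher by Illumina and 0 higher by Nanopore, against 27.2% and 20.2% of all tested genes. With so few genes these counts do not set the list apart from the background. ITGA6 (CD49f), an integrin used to sort basal cells, was at 49.6 CPM by Nanopore and 202 by Illumina (log2 ratio −2.01, exact adjusted p = 7.84e-15). ITGB1, a partner of ITGA6, was at 412 and 734 CPM (log2 ratio −0.83, exact adjusted p = 2.69e-15). That direction turned with division of Illumina counts by union exonic (1.58) or mean transcript length (0.54). CD55, a complement regulator, was at 66.96 and 120.8 CPM (log2 ratio −0.84, exact adjusted p = 0.00317), and turned with union exonic length (1.05). PROM1 (CD133) had 4 Illumina counts and LGR6 4, with none by Nanopore.

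The retinaldehyde dehydrogenases, which make retinoic acid, differed within these cells. ALDH1A1 (ENSG00000165092, chromosome 9, 72900671 to 73080442) was at 0 in both libraries. At 3 counts that allows up to 0.0156 CPM by Illumina and 7.44 CPM by Nanopore. ALDH1A3 (ENSG00000184254, chromosome 15, 100877714 to 100916626) had 2 Nanopore counts, 4.96 CPM (0.601 to 17.9), and 4041 Illumina counts, 21.1 CPM (20.4 to 21.7). ALDH1A2, the remaining gene of that group, had 1 and 11 counts. So of the group, ALDH1A3 held nearly all counts in the Illumina library, at 10.7 TPM against 0.0191 TPM for ALDH1A2.

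Illumina counts would give 8.50 Nanopore counts of ALDH1A3, and the Illumina level was 4.25 times the Nanopore level (1.18 to 35.1). The exact adjusted p was 0.0405, close to the threshold, and ranged from 0.0405 to 0.538 over 10 alternatives, 7 of which ended the call. The pseudocounts of 0.1 and 5 CPM among them could not end it. ALDH1A3-AS1 on the other strand shares 1715 exonic bases, 32.1% of ALDH1A3, and had 2 Nanopore and 2343 Illumina counts.

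In the wider aldehyde dehydrogenase family, ALDH1A3 was a minor gene. Of 19 family genes, its own share was 1.07% of 187 Nanopore counts (0.130 to 3.81%) and 2.995% of the Illumina TPM, where it had rank 9 by union exonic length. The highest on that scale was ALDH9A1, at 114 TPM, which acts on aminoaldehydes, followed by ALDH18A1, an enzyme of proline synthesis, at 74.7 TPM and the mitochondrial ALDH1B1 at 49.1 TPM. By mean transcript length ALDH9A1 (145.4 TPM) was followed by ALDH7A1, at 140.1 TPM against 29.7 by union exonic length, and ALDH18A1 (71.5 TPM). Of the 17 family genes beside ALDH1A1 and ALDH1A3, 11 were tested, 4 were called higher by Illumina (ALDH1B1, ALDH7A1, ALDH9A1 and ALDH18A1) and 0 higher by Nanopore. Over all tested genes these shares were 27.2% and 20.2%. ALDH1B1 had the lowest log2 ratio of the 11, −1.86 (6 Nanopore and 10830 Illumina counts, exact adjusted p = 0.000263). By Nanopore the most counted were ALDH7A1, which acts in lysine breakdown, and ALDH3A2, which acts on fatty aldehydes, with 42 counts each. ALDH7A1 was called (104.2 against 196.5 CPM, log2 ratio −0.91, exact adjusted p = 3.06e-05), but turned with union exonic length (1.78), and ALDH3A2 was not (104.2 against 77.0 CPM, exact adjusted p = 0.127). ALDH2, the main ethanol-pathway enzyme, had 1 Illumina count and none by Nanopore.

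BMI1 (ENSG00000168283, chromosome 10, 22321099 to 22331484), a core subunit of Polycomb repressive complex 1, had 25 Nanopore counts, 62.0 CPM (40.1 to 91.5), and 8059 Illumina counts, 42.0 CPM (41.1 to 43.0). The ratio was 1.48-fold (0.954 to 2.18) with an exact adjusted p of 0.141, not past the threshold. Dividing the Illumina counts by union exonic length, 4395 bases, moved its log2 ratio from 0.55 to 1.23 (exact adjusted p = 0.000681), and by mean transcript length, 888 bases, to 0.12.

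A readthrough gene on the same strand, COMMD3-BMI1 (ENSG00000269897, 22316388 to 22329542), shares most exons with BMI1. The readthrough had 22 Nanopore and 8257 Illumina counts, 88.0 and 102.5 per 100 BMI1 counts. Of the 10 exons of the main BMI1 transcript, 9 start where a readthrough exon starts, and 1000 exonic bases are common to both genes, 22.8% of BMI1 and 52.5% of the readthrough. How reads in the shared bases were assigned is not given in the sources used here. The upstream gene COMMD3 does not overlap BMI1. The readthrough ends at 22329542, whereas BMI1 runs on to 22331484. The junctions into the first shared exon are printed because, within the bases shown, they differ only upstream of the junction. The 15 bases of the shared exon (from 22326431) are in capitals.
BMI1 junction, from the exon ending at 22321696: ggctgctctttccggGATTTTTTATCAAGC
COMMD3-BMI1 junction, from the exon ending at 22319018: atggaacaattacagGATTTTTTATCAAGC
Both are hg38, chromosome 10, plus strand. Gene-level counts hold no information on which junction a read crossed.

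Among the 6 PCGF genes, which give each form of the complex its identity, BMI1 (PCGF4) held 25 of 65 Nanopore counts, 38.5% (26.7 to 51.4%), and 22.3% of the Illumina TPM, where it ranked behind PCGF2 (28.8 TPM) and PCGF1 (26.5 TPM) by union exonic length. By mean transcript length BMI1 was the highest of the 6, at 56.8 TPM against 30.1 for PCGF1 and 24.98 for PCGF2. The other 15 genes of the complex were all detected by Illumina and 14 by Nanopore. Of 14 tested, 2 were called higher by Nanopore and 4 higher by Illumina, against 20.2% and 27.2% of all tested genes. The scaffold genes split: PHC1 was higher by Nanopore (54.6 against 30.2 CPM, log2 ratio 0.83, exact adjusted p = 0.0322) and PHC2 lower (57.04 against 150.05 CPM, log2 ratio −1.38, exact adjusted p = 3.80e-07). RING1, a ubiquitin ligase of the complex, was lower by Nanopore (7.44 against 30.6 CPM, log2 ratio −1.90, exact adjusted p = 0.00958). RNF2, another gene of this list, was at 17.4 and 15.8 CPM (exact adjusted p = 0.976). CBX6, a chromatin reader, had 1 Nanopore count against 22.7 CPM by Illumina (log2 ratio −2.77, exact adjusted p = 0.00619). It passed the filter through its Illumina value, since its Nanopore level was 2.48 CPM, so its direction is partly set by the filter.

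GATA3 (ENSG00000107485, chromosome 10, 8045378 to 8075198) was nearest to equal of the 8 tested markers. It had 4 Nanopore counts, 9.92 CPM (2.70 to 25.4), and 2479 Illumina counts, 12.9 CPM (12.4 to 13.4), which would give 5.21 Nanopore counts. The Nanopore level was 0.767 of the Illumina level (0.209 to 1.97), with an exact adjusted p of 0.902, and its log2 ratio of −0.35 became 0.085 with division by mean transcript length. The overlapping GATA3-AS1 was at 0 in both libraries, and none of the 50-base words of GATA3 occurs in another gene. FOXA1, a luminal factor that acts with GATA3, had 952 Illumina counts, 4.97 CPM, and none by Nanopore. Of the 4 tested luminal genes, ESR1 (965 against 143 CPM, log2 ratio 2.74, exact adjusted p = 1.82e-177) and KRT8 (389 against 209 CPM, log2 ratio 0.89, exact adjusted p = 1.82e-11) were called higher by Nanopore, against 20.2% of all tested genes. KRT18, the partner of KRT8 (280.2 against 321.8 CPM), and MUC1 (24.8 against 29.7 CPM) were not past the threshold. BMI1 counts outnumbered GATA3 counts 6.25 to 1 by Nanopore (2.16 to 24.7), on 4 GATA3 counts. By Illumina this ratio was 2.51 per union exonic length and 6.12 per mean transcript length.

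**Figure D2:**
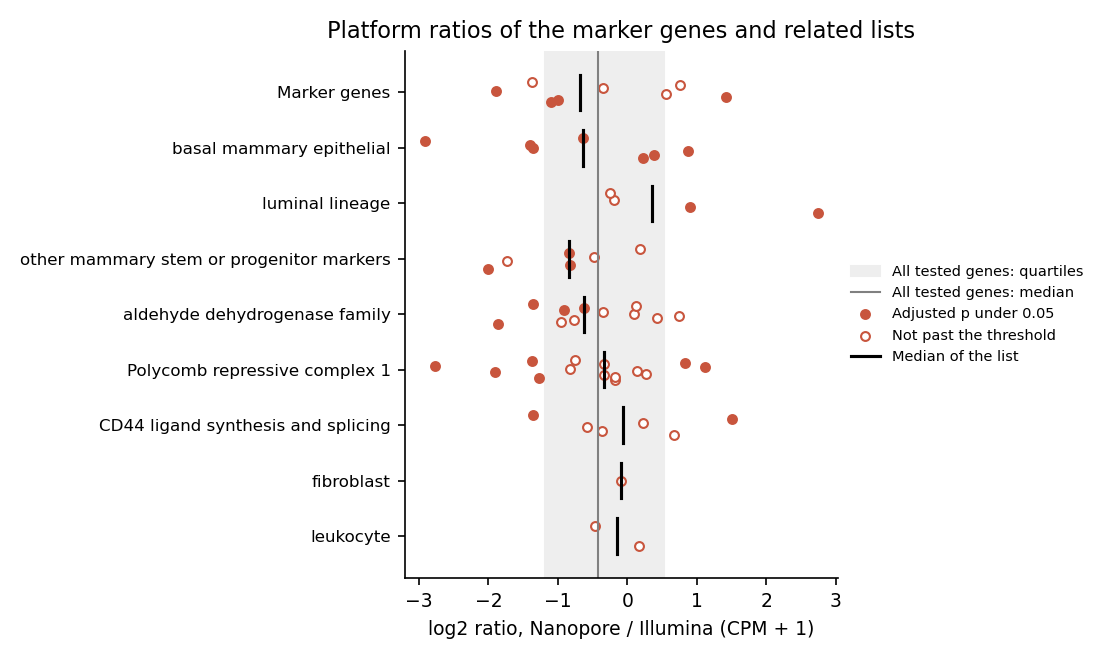
Each point is a tested gene, placed by its log2 ratio of Nanopore to Illumina (CPM + 1), for the marker genes and related lists; filled points have an adjusted p under 0.05, black bars are list medians, and the grey band and line are the quartiles and median of all tested genes. The marker genes spread from −1.89 to 1.42 around a median of −0.68, near the all-gene median of −0.42.

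Set against genes of their own length group, the markers did not follow a single course. With tested genes of known exonic length in 5 groups of 2470, CD24 (1.42) and EPCAM (0.75) were above the upper quartile of 0.59 in the group of 2238 to 3966 bases, where GATA3 (−0.35) lay near the median of −0.23. BMI1 (0.55) was above and ALDH1A3 (−1.89) below the quartiles of the group of 3966 to 5832 bases, which were −1.25 and 0.12. CD44 (−1.10) and MME (−1.38), the longest at 9992 and 9863 bases, lay within the quartiles of the group from 8628 bases up, which were −1.54 and −0.27. These placements are descriptions, and for EPCAM, ALDH1A3 and MME they rest on 2 or 3 Nanopore counts and on a filter that each passed through its higher library only, so nothing is read from them.

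**Figure D3:**
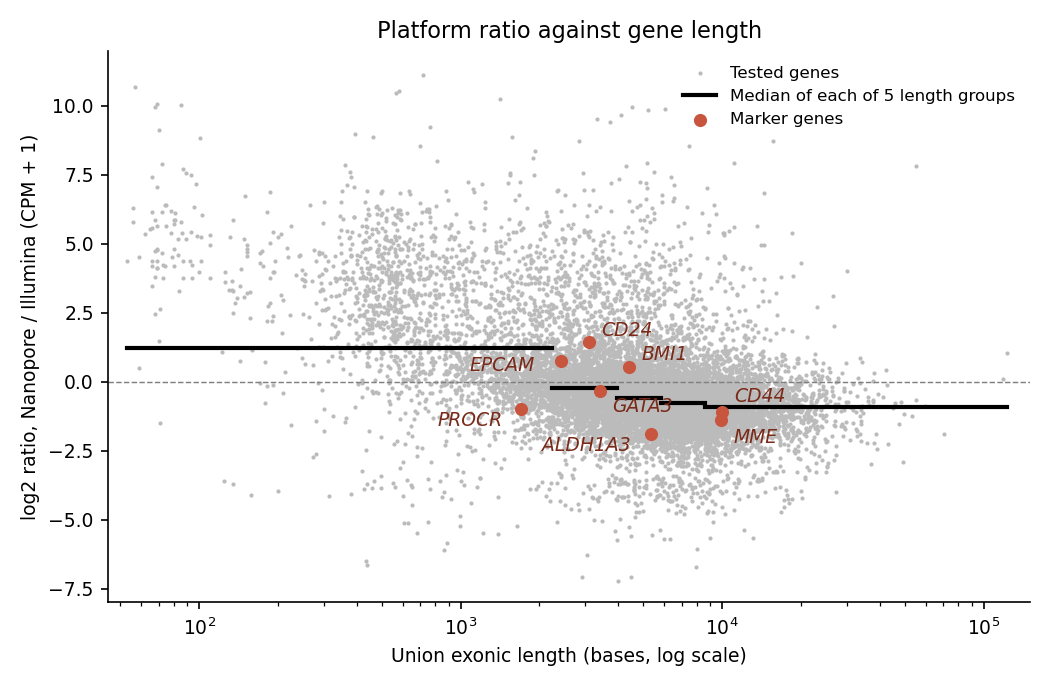
Log2 ratio of Nanopore to Illumina (CPM + 1) against union exonic length (log axis) for all tested genes (grey), with the 8 tested marker genes in red and the medians of 5 length groups as black lines. CD24, EPCAM and BMI1 lie above the line of their group, PROCR and ALDH1A3 well below it. Nothing is read from EPCAM, ALDH1A3 and MME, which had 2 or 3 Nanopore counts and passed the filter through their higher library only.

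Another annotated gene body, on either strand, overlaps 9 of the 10 markers, CD24 being the exception. The same holds for 66.7% of all protein-coding genes in the tables and 74.7% of those tested, so overlap is common and not particular to the markers. In total 19 genes overlap them, of which 7 had a Nanopore count, at 6 markers. Of the 6 overlapping genes whose marker also had Nanopore counts, 5 lie on the other strand, and each of these 5 had more counts per 100 marker counts by Nanopore than by Illumina. For ALDH1A3-AS1 and MME-AS1 this rests on 2 Nanopore counts each, and ALDH1A3-AS1 was itself lower by Nanopore (log2 ratio −1.15, exact adjusted p = 0.376). The 6 genes were kept for having a Nanopore count, which partly sets that direction. Left out by this rule, opposite-strand CD44-DT (0 against 0.0111 per 100 of CD44) and ENSG00000278456 (0 against 0.421 per 100 of ALDH1A3) went the other way. On the CPM scale CD44, PROCR, ALDH1A3 and MME were lower by Nanopore, which raises counts per 100 of them. CD44-AS1, ENSG00000278367 and MME-AS1 are short, at 587, 565 and 828 exonic bases. Tested genes of 53 to 2236 bases had a median log2 ratio of 1.21. The part of length was not tested. The same-strand readthrough COMMD3-BMI1 had fewer, on 22 Nanopore counts, though its own log2 ratio was 0.33 (exact adjusted p = 0.441). The seventh gene, USP2-AS1, had 1 Nanopore count and spans THY1, which had none. Words of 50 bases found in other genes made up 27.8% of those of ALDH1A3, 20.8% of BMI1, 11.6% of PROCR, 10.9% of THY1 and 5.76% of CD24, at most 1.74% of CD44, EPCAM and MME, and none of GATA3 and ALDH1A1. These words were sought in annotated transcripts only, so the share of CD24 leaves out the unannotated part of its chromosome Y copy.

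**Figure D4:**
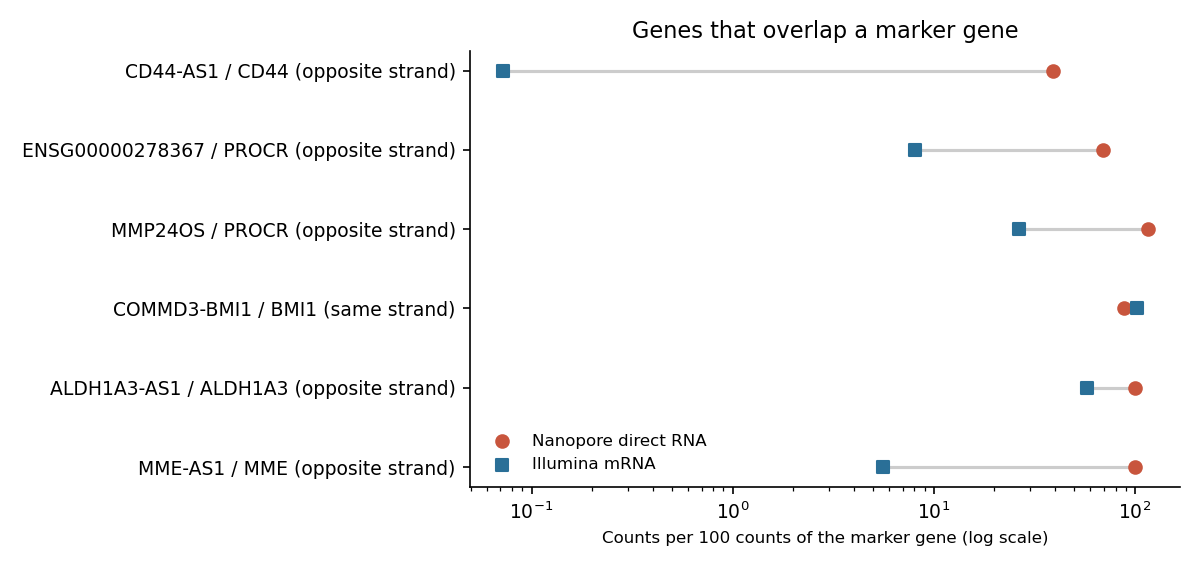
Counts of each overlapping gene per 100 counts of the marker gene it overlaps (log axis), by Nanopore (circles) and Illumina (squares), for the 6 pairs with Nanopore counts of both genes. The 5 opposite-strand genes sit further right by Nanopore, CD44-AS1 at 39.2 against 0.0718, with ALDH1A3-AS1 and MME-AS1 resting on 2 Nanopore counts each. Overlapping genes without a Nanopore count are left out, which partly sets this direction. COMMD3-BMI1 sits at 88.0 and 102.5.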

How the data were processed

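Each file the authors deposited holds whole-number gene counts, for 1 Nanopore direct RNA and 1 Illumina library, without normalization, per the values. The column names in the file headers differ from the sample titles, so each file was taken as the sample it was deposited under. The submitters' processing notes name minimap2 2.11-r797, HISAT2 2.1.0, featureCounts and hg38 without roles; strand and multi-mapping settings and the annotation are not given in the sources used here. Of 58735 identifiers, 58207 matched GENCODE release 44. Counts were scaled to CPM by library totals of 403235 and 191741714. With 1 library per group no dispersion model could be fitted, so an exact conditional binomial test (scipy 1.17.1) was used where the mean level reached 5 CPM, called at an adjusted p under 0.05 (Benjamini-Hochberg), with 4-fold as a size rule. The test was tested on simulated data. TPM used union exonic or mean transcript length. Copies were sought with minimap2 2.31 (spliced mode, at least 80% of the transcript), and TMM factors came from edgeR 4.0.16. All members are named. Of each other list, the most abundant genes and those past 4-fold were to be named, and further list genes were chosen after their values were seen. Some list genes are not reported here. Members and lists were chosen with earlier results of these data known.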

Additional observations from a re-analysis of the deposited data

How the results depend on the processing

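Scaling by TMM, by median ratio or without mitochondrially encoded genes kept the direction of each tested marker. TMM shifts log2 ratios by about 0.088 and median ratio by about 0.127. The marker ratio smallest in size was −0.35 (GATA3), so neither could turn a direction. Leaving out mitochondrially encoded genes moved GATA3 only to −0.29. Other filters (means of 1 and 20 CPM, or none) and pseudocounts of 0.1 and 5 CPM cannot change a direction. The pseudocounts cannot change a call either. Such agreement was fixed in advance and is included in the values counted next. Of 84 values of single genes under alternatives, 73 kept direction and call, 8 lost the call (7 of ALDH1A3 and 1 of PROCR), 1 gained it (BMI1) and 2 reversed. The reversals came with division of Illumina counts by length: CD44 at 0.77 with union exonic length, and GATA3 at 0.085 with mean transcript length. With union exonic length, 3 markers were called higher by Nanopore (CD24, CD44 and BMI1) and 1 higher by Illumina (PROCR), while 32.4% and 12.8% of all genes tested on that scale were called. With only protein-coding genes kept, 2 markers were called (CD24 and CD44), 1 of them higher by Illumina, against 13.5% of all genes called higher by Nanopore and 21.1% by Illumina. A pseudocount of 0.1 put 1 marker, ALDH1A3, past 4-fold. At least 10 counts were present by Nanopore for 4 markers, and at least 3 for 6. Filtering at 20 CPM left 4 markers tested, and union exonic length left MME untested. Of 24 called genes of the related lists, 6 turned with division by length (5 with union exonic length, 3 with mean transcript length). The causes were not tested. No paired analysis was possible because each platform has 1 library, and for the same reason no library could be left out. Nanopore depth limits each marker with under 5 counts to intervals that span several-fold.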
